A study of Homo sapiens with 8 samples.

Results

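Sodium pumps, calcium pumps and the vacuolar proton pump were followed in cells made resistant to cisplatin from A2780, a line of human ovarian carcinoma. The members were all clones on the array whose symbol in the deposited table begins ATP1, ATP2 or ATP6 followed by a letter. There were 28 such clones on 31 spots, standing for 26 of the 9962 gene symbols in the table and among 13340 clones in all. By type they were 6 sodium pump clones (6 genes), 8 calcium pump clones (7 genes) and 14 vacuolar pump clones (13 genes). The derivatives CPR20, CPR40, CPR55 and CPR70 were each set against the sensitive parental line, CPR00, on 2 spotted cDNA arrays, with RNA of the derivative in Cy5 and of the parental line in Cy3 on every array. All cells grew in RPMI1640 with fetal calf serum, and the labels name no drug in it. The labels do not say what the number in a derivative's name stands for, whether a derivative is a single clone of cells, or whether its 2 arrays came from separate cultures, so the errors below may cover technical spread alone.

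Each of these pumps spends ATP to move ions against a gradient. The sodium pump, built from a catalytic alpha and a glycosylated beta subunit, exchanges internal sodium for external potassium at the plasma membrane and sets the gradients that drive many carriers. Calcium pumps clear calcium from the cytosol, into the endoplasmic reticulum (the SERCA pumps, ATP2A genes), out of the cell (the PMCA pumps, ATP2B genes) or into the Golgi (ATP2C1). The vacuolar pump acidifies lysosomes, endosomes and the Golgi. Its cytosolic V1 sector splits ATP, and its membrane V0 sector carries the protons. Many of its genes are known targets of the lysosomal regulator TFEB, which binds a palindrome around the letters CACGTG.

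The array uses older symbols for the vacuolar pump. In the V1 sector, through the RefSeq gene table, ATP6A1 is now ATP6V1A, ATP6B1 and ATP6B2 are ATP6V1B1 and ATP6V1B2, ATP6E is ATP6V1E1, ATP6J is ATP6V1G1 and ATP6S14 is ATP6V1F. In the V0 sector ATP6N1A is ATP6V0A1, ATP6F is ATP6V0B, ATP6L is ATP6V0C and ATP6H is ATP6V0E1, and the accessory protein ATP6S1 is ATP6AP1. The names ATP6C and ATP6D each match 2 current genes. ATP6C was placed in the V1 sector because its clone title gives a size of 42 kD, that of subunit C, and ATP6D was left without a sector.

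Promoter sequences are shown for both V0 genes whose clones passed the test below, and for a V1 gene that carries the TFEB-type palindrome but did not pass. They are the 250 bases before the gene start, from RefSeq (GRCh38.p14), all on the plus strand, 5′ to 3′, with CACGTG in capitals. ATP6V0B lies at chr1:43974710-43974959, ATP6V0A1 at chr17:42458628-42458877 and ATP6V1G1 at chr9:114587519-114587768.
ATP6V0B: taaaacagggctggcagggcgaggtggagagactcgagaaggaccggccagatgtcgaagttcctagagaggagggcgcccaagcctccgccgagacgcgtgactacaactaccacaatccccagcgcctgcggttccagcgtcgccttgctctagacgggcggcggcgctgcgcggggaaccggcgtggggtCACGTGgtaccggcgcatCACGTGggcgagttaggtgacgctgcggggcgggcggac
ATP6V0A1: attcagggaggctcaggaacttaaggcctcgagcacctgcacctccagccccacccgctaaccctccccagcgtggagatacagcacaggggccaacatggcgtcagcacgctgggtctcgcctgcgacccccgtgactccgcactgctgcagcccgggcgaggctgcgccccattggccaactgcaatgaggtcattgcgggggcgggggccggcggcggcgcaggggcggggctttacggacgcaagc
ATP6V1G1: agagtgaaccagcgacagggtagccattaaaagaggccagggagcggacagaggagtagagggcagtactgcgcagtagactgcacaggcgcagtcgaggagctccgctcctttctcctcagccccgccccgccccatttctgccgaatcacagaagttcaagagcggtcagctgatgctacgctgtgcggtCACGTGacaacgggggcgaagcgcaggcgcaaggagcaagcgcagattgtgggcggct

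ATP6V0B held 2 copies of CACGTG, starting 57 and 39 bases before the gene start, and ATP6V0A1 held 0. ATP6V1G1 held 1 copy, 58 bases before the start, with GT before it and AC after it, which makes the longer palindrome. Of the 24 member genes with a single current symbol, 17 had a promoter in the RefSeq table. Some had several windows, and CACGTG lay in 2 of their 27 windows, those of 2 genes. Over all 35116 promoter windows of that length 6.34% held CACGTG and 0.308% the longer palindrome, each motif reading the same on both strands and the shorter lying within the longer. These matches describe letters in a window and are no measure of binding.

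The arrays as a whole set the limits of what follows. Of 14427 clone spots, between 12759 and 14373 were found per array, and 13186 clones had values on at least 1 array of each derivative and were tested. A channel was taken as above background where it exceeded the median of the empty spots of that array by 2.6 scaled median absolute deviations, which 26.4% to 60.3% of clone spots did in the derivative channel and 20.3% to 41.9% in the parental channel. Across clones the replicate 1 arrays correlated with each other at r = 0.41 to 0.60 and the replicate 2 arrays at 0.53 to 0.72, while the 2 arrays of a derivative did so at 0.33 to 0.44. These correlations are over 10807 clones with 8 values and include the shared parental RNA. Of 9 epithelial carcinoma markers measured, 1 (KRT18) was above background on 4 or more arrays in both channels, and of 6 leukocyte markers 0 were. Of 4 endothelial markers 1 (VWF) was, on 8 of 8 arrays in each channel, and 0 of the 4 were called. One epithelial marker, EPCAM, was called higher (0.82, adjusted p = 0.0316, limma, parental channel at background), and KRT18 was at 1.54 and higher on 8 of 8 arrays without passing (adjusted p = 0.0673). The derivative channel of EPCAM was above background on 2 arrays, and with its parental channel set to the background level the ratio no longer exceeded 1. Of 7 fibroblast markers 1 was above background on 4 or more arrays in the derivative channel and 4 in the parental channel. Of the 7, 4 were called lower in the derivatives. These marker values moved between the same 2 channels as the pump values, and their part in the pump results was not tested.

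Detection differed by pump type. Both channels were above background on 4 or more arrays for 10 of 14 vacuolar pump clones, including 4 of 4 V0 and 5 of 8 V1 clones, but for 1 of 8 calcium pump and 2 of 6 sodium pump clones. The parental channel was above background on 0 arrays for 8 clones, 5 of them calcium pumps, and 3 clones (ATP2A1, ATP2B4 and ATP1B2) were above it on 0 arrays in either channel. In these log2 ratios, fewer cells with a transcript and less transcript per cell cannot be told apart.

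**Figure D1:**
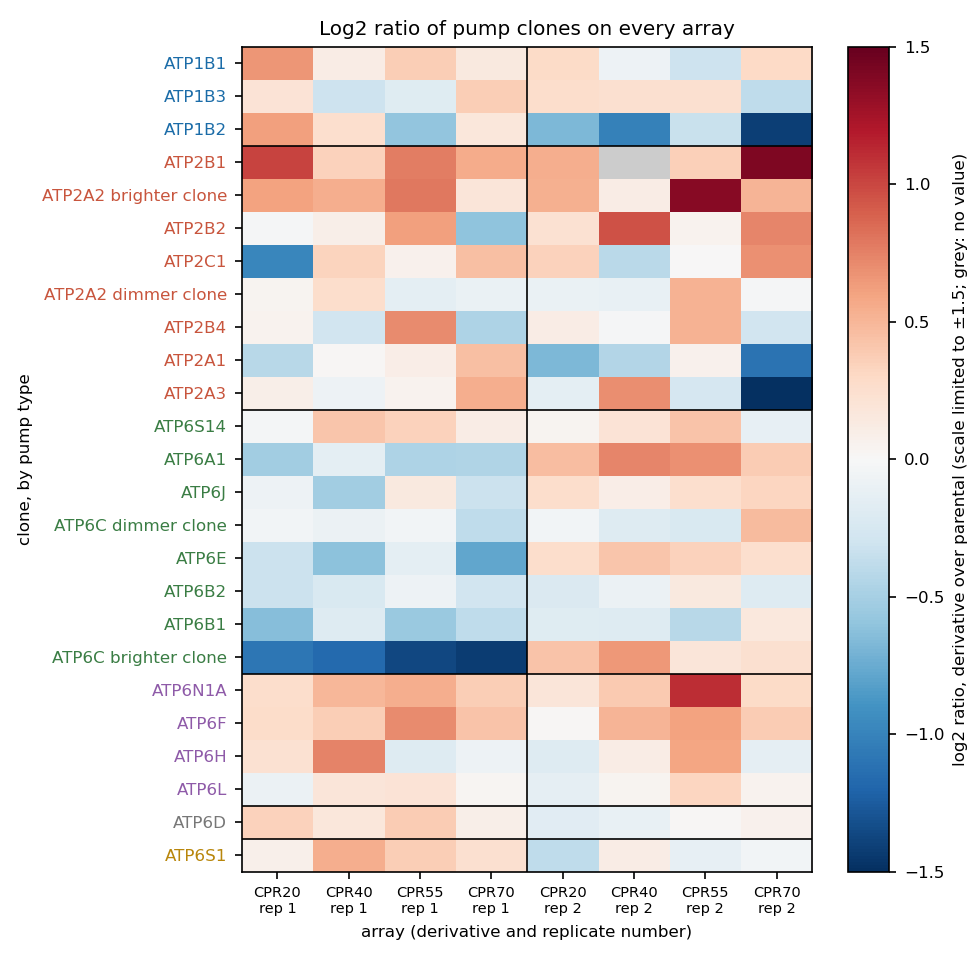
Log2 ratio of derivative over parental line (colour, limited to ±1.5) for 25 of the 28 pump clones (rows, by pump type) on the 8 arrays (columns, replicate 1 arrays on the left). The ATP6C brighter clone, ATP6A1 and ATP6E change colour between the replicate 1 and the replicate 2 arrays, and ATP2A3 has 1 value, -2.96 on the CPR70 replicate 2 array, that lies beyond the colour scale.

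When the 4 derivatives were averaged and set against CPR00, 4 of the 28 clones rose and 0 fell, at a Benjamini-Hochberg adjusted p under 0.05 in limma over all tested clones. These were the ATP2A2 brighter clone, ATP2B1, ATP6N1A and ATP6F, that is 2 calcium pumps and 2 V0 subunits. Over the whole array 11% of clones were called (6.33% higher and 4.62% lower), so the members' 14.3% lay near the background. Among clones above background in at least 1 channel on 4 or more arrays, 3 of 17 members (17.6%) were called against 31.1% of 6006 clones. The median log2 ratio of the members was 0.07 and that of all tested clones -0.01. Of the 26 members with 8 values 3 (the ATP2A2 brighter clone, ATP6N1A and ATP6F) had the same sign on all 8 arrays, against 16.1% of all such clones. Each of the 4 calls was lost under some alternatives: all 4 were lost when the ratios were median centred in place of loess (adjusted p = 0.0508 to 0.309), where the ATP2A2 brighter clone was at 0.83, ATP6F at 0.58, ATP6N1A at 0.57 and ATP2B1 at 0.40, and in the authors' calibrated ratios (0.104 to 0.662). All 4 kept their sign in every alternative that gave them a value.

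**Figure D2:**
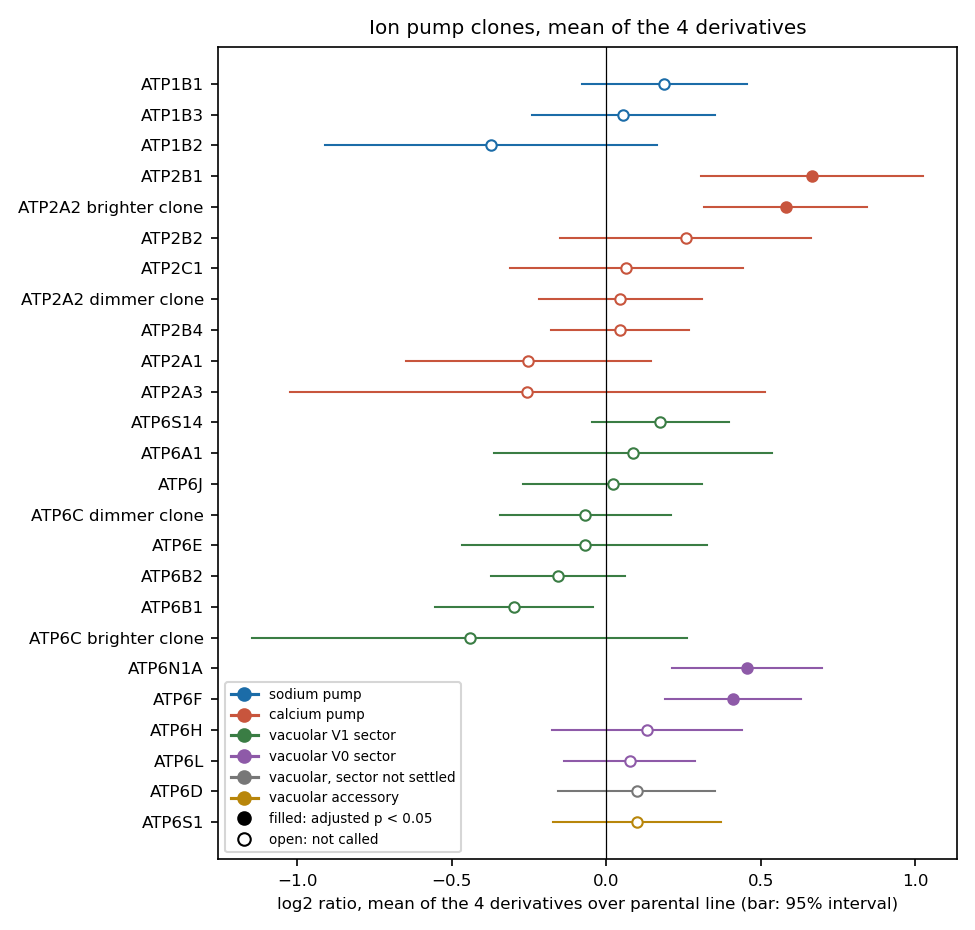
Mean log2 ratio of the 4 derivatives over the parental line (x axis) for 25 of the 28 pump clones (y axis, by pump type), with its 95% interval from limma as a bar. Filled points passed at an adjusted p under 0.05, and these are the ATP2A2 brighter clone (0.58), ATP2B1 (0.67), ATP6N1A (0.46) and ATP6F (0.41).

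Among the SERCA pumps, ATP2A2 encodes the widely expressed pump that refills the endoplasmic reticulum. Its brighter clone, above background in both channels on 8 of 8 arrays, had log2 ratios of 0.60 and 0.53 in CPR20, 0.55 and 0.11 in CPR40, 0.79 and 1.37 in CPR55, and 0.19 and 0.51 in CPR70 (replicate 1, then replicate 2). All 8 values lay above 0, and those of CPR55 were the highest. In intensity the CPR55 arrays read 5990 against 1531 (Cy5 against Cy3, replicate 1) and 3891 against 1005 (replicate 2), while CPR70 replicate 1 read 4803 against 4818. The mean was 0.58 ± 0.11 (SE, 8 arrays; 1.49-fold, limma adjusted p = 0.0168).

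A second, dimmer ATP2A2 clone read differently. It was above background on 6 arrays in the derivative channel and 2 in the parental channel, and its log2 ratios were 0.05 and -0.10 in CPR20, 0.27 and -0.11 in CPR40, -0.15 and 0.53 in CPR55, and -0.10 and -0.02 in CPR70. These values lay on both sides of 0, with a mean of 0.04 ± 0.11 (adjusted p = 0.845, limma). The average of the 2 clones, 0.31, did not pass (adjusted p = 0.119), so the rise rests on 1 of 2 clones.

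The other SERCA genes are best known from muscle (ATP2A1) and from blood cells and some epithelia (ATP2A3). ATP2A1 was at -0.25 ± 0.17 and was above background on 0 arrays in either channel. ATP2A3 was at -0.26 ± 0.33, and its values were 0.09 and -0.14 in CPR20, -0.08 and 0.69 in CPR40, 0.06 and -0.25 in CPR55, and 0.54 and -2.96 in CPR70. The last of these stood alone, with a parental intensity of 1466 on that array against 44.6 to 688 on the other 7. Without CPR70 replicate 1, ATP2A3 passed as lower (-0.69, adjusted p = 0.0304, limma), and without CPR70 replicate 2 it was at 0.18, so its sign turned on 1 array.

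Of the PMCA pumps, ATP2B1, the widespread form that expels calcium across the plasma membrane, had log2 ratios of 1.02 and 0.54 in CPR20, 0.35 in CPR40 (replicate 1 only), 0.77 and 0.35 in CPR55, and 0.55 and 1.40 in CPR70. All 7 values lay above 0, with a mean of 0.67 ± 0.16 (adjusted p = 0.0390, limma). The spot was not found on CPR40 replicate 2. The signal was weak: the parental channel was above background on 0 arrays and the derivative channel on 2, and no fold is given because with the parental channel set to its background level the ratio no longer exceeded 1. ATP2B2, known chiefly from neurons and hair cells, was at 0.26 ± 0.18 and ATP2B4 at 0.04 ± 0.10. The Golgi pump ATP2C1, which also carries manganese, was at 0.06 ± 0.16, and none of these 3 passed.

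ATP2B4 had the smallest p of the members in the test of any difference among the derivatives. Its log2 ratios were 0.71 and 0.53 in CPR55 and -0.46 and -0.29 in CPR70, with 0.06 and 0.11 in CPR20 and -0.29 and -0.02 in CPR40. The 2 CPR55 arrays lay above all others. That difference did not pass (adjusted p = 1.00, limma F test), and both channels were at background on all 8 arrays.

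**Figure D3:**
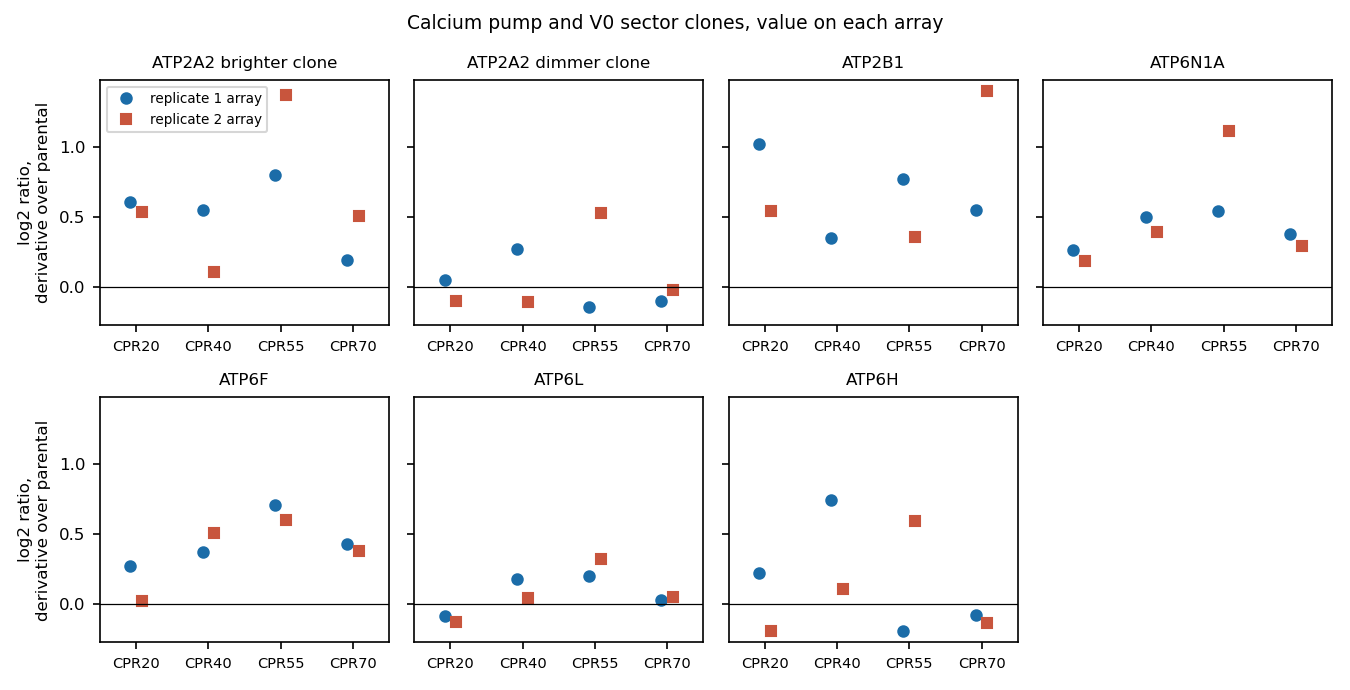
Log2 ratio of derivative over parental line (y axis) by derivative (x axis) on each array for both ATP2A2 clones, ATP2B1 and the 4 V0 clones, with replicate 1 arrays as circles and replicate 2 arrays as squares. ATP6N1A and ATP6F lie above 0 on all 8 arrays, while the ATP2A2 dimmer clone and ATP6H lie on both sides.

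In the V0 sector all 4 clones had means above 0 and 2 of the 4 passed as higher, against 6.33% called higher over all tested clones. That background includes many dim clones, while all 4 V0 clones were above background in both channels on 4 or more arrays. Among the 6006 clones above background in at least 1 channel on 4 or more arrays, 31.1% were called in either direction. ATP6N1A, subunit a, which with the turning ring forms the proton path, had log2 ratios of 0.26 and 0.18 in CPR20, 0.50 and 0.39 in CPR40, 0.54 and 1.11 in CPR55, and 0.37 and 0.29 in CPR70. Every value was above 0, and the 2 CPR20 values were the lowest. The mean was 0.46 ± 0.10 (1.37-fold, adjusted p = 0.0297, limma), with the parental channel above background on 5 of 8 arrays. On both CPR55 arrays the parental channel was not above background.

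ATP6F encodes the c″ subunit of the proteolipid ring that turns in the membrane. Its log2 ratios were 0.27 and 0.02 in CPR20, 0.37 and 0.51 in CPR40, 0.70 and 0.60 in CPR55, and 0.42 and 0.38 in CPR70. Every value was again above 0, CPR55 was highest and CPR20 lowest. The mean was 0.41 ± 0.09 (1.33-fold, adjusted p = 0.0302, limma), and both channels were above background on all 8 arrays. With 7 arrays the call was lost whichever array was left out (adjusted p = 0.0572 to 0.101), and that of ATP6N1A was lost in 7 of 8 such fits (0.0325 to 0.0904 over the 8).

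The other V0 clones did not pass. ATP6L, the c subunit that makes up most of the ring, was bright and steady, with values from -0.13 to 0.32 and a mean of 0.08 ± 0.09 (95% interval -0.14 to 0.29). ATP6H, the small e subunit, ranged from -0.20 to 0.74, with a mean of 0.13 ± 0.13 (adjusted p = 0.577, limma). By derivative, the median of the 4 V0 clones was 0.08 in CPR20, 0.43 in CPR40, 0.46 in CPR55 and 0.19 in CPR70, against medians of all tested clones between -0.01 and 0.00.

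In the V1 sector 0 of 8 clones passed in either direction, 3 had means above 0 and 5 below, and the median was -0.07. ATP6B1, the B subunit isoform of kidney and inner ear, was lowest relative to its error at -0.30 ± 0.11 (95% interval -0.56 to -0.04, adjusted p = 0.131, limma), and was lower on 7 of 8 arrays with both channels mostly at background. ATP6B2, the widespread B isoform, was at -0.16 ± 0.09 and also lower on 7 of 8 arrays. ATP6S14, subunit F of the central stalk, was at 0.17 ± 0.10, and ATP6J, subunit G of the outer stalk, at 0.02 ± 0.13.

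Several V1 clones split by replicate number and not by derivative. The brighter clone of ATP6C, subunit C, which joins V1 to V0 and comes off when the pump is taken apart, had log2 ratios of -1.08, -1.16, -1.37 and -1.43 on the replicate 1 arrays of CPR20, CPR40, CPR55 and CPR70. On the replicate 2 arrays in the same order they were 0.43, 0.65, 0.18 and 0.24. The 2 sets of arrays did not overlap. Its replicate 2 arrays exceeded its replicate 1 arrays by 1.64 ± 0.15 on the log2 scale (adjusted p = 0.0499, limma with derivative in the model), and this contrast, chosen after the values were seen, was called for 8 of 13148 clones (0.0608%). Its overall mean of -0.44 ± 0.31 (adjusted p = 0.400, limma) lay between the sets. This mean passed with replicate number as a term in the fit (adjusted p = 0.0118, limma). That term takes the difference between the sets out of the error, so the p does not cover the change of sign between them. The dimmer ATP6C clone was at -0.07 ± 0.12 with no such split.

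ATP6A1, the catalytic A subunit, behaved likewise at a smaller size. It read -0.52, -0.15, -0.46 and -0.46 on the replicate 1 arrays and 0.47, 0.73, 0.69 and 0.38 on the replicate 2 arrays. ATP6E, subunit E of the outer stalk, read -0.32, -0.61, -0.14 and -0.78 on the first and 0.26, 0.42, 0.35 and 0.25 on the second. Neither set difference passed (0.96 ± 0.15, adjusted p = 0.0652, and 0.79 ± 0.18, adjusted p = 0.0897). Of the 26 members with 8 values 4 had sets that did not overlap (these 3 and ATP6D), against 19% of all such clones. The means of ATP6A1 (0.09 ± 0.19) and ATP6E (-0.07 ± 0.17) likewise average values of opposite sign.

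**Figure D4:**
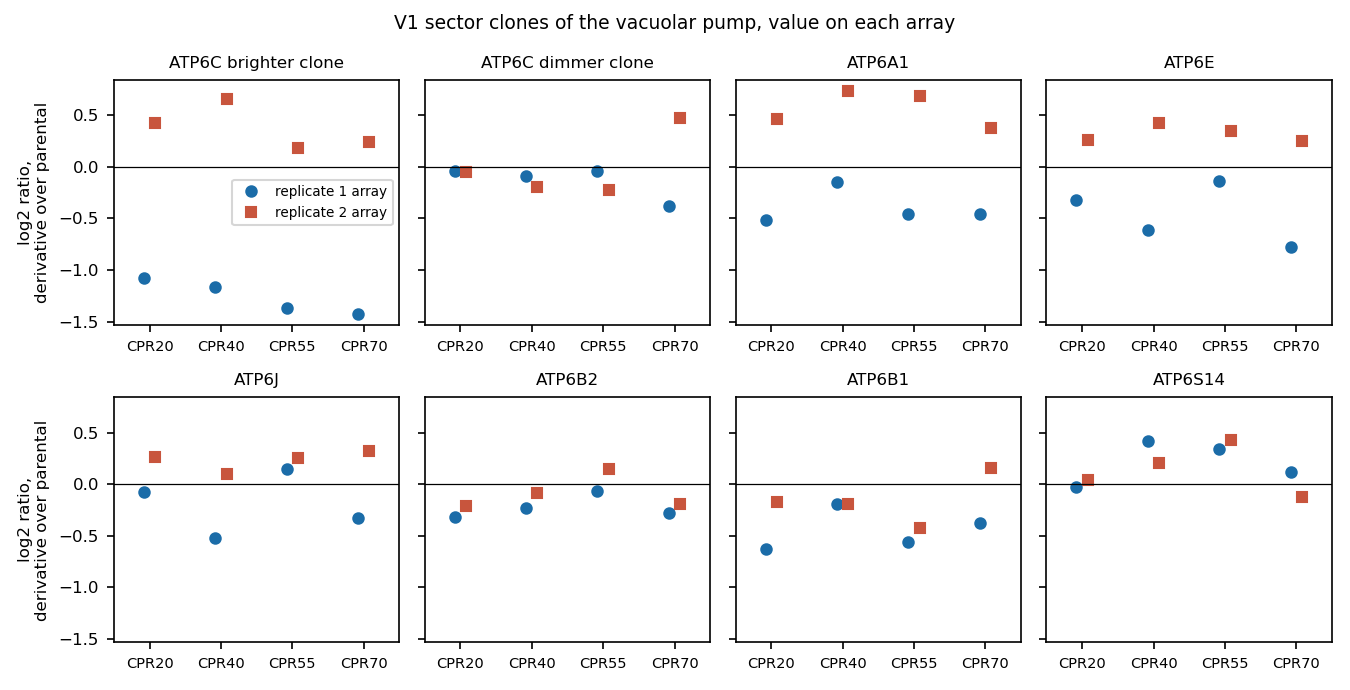
Log2 ratio of derivative over parental line (y axis) by derivative (x axis) for the 8 V1 sector clones, with replicate 1 arrays as circles and replicate 2 arrays as squares. For the ATP6C brighter clone, ATP6A1 and ATP6E every circle lies below 0 and every square above it.

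The remaining vacuolar clones were the one without a sector and the accessory protein. ATP6D, which may be subunit C or d, was at 0.10 ± 0.11, with 0.34, 0.17, 0.38 and 0.09 on the replicate 1 arrays and -0.17, -0.11, 0.02 and 0.07 on the replicate 2 arrays. ATP6S1, the accessory protein Ac45 that helps assemble and sort the pump, was at 0.10 ± 0.12, with 0.08 and -0.38 in CPR20, 0.54 and 0.11 in CPR40, 0.37 and -0.13 in CPR55, and 0.24 and -0.04 in CPR70. Its values lay on both sides of 0, with the parental channel at background on all 8 arrays. Neither clone passed.

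None of the 6 sodium pump clones passed. Of the beta subunits, which carry the pump to the membrane, ATP1B3 was above background in both channels on 8 of 8 arrays. It was at 0.06 ± 0.13, with values from -0.38 to 0.36. Its brightness was unlike in the 2 sets of arrays: the Cy5 intensity was 7057 to 31706 on the replicate 1 arrays and 487 to 1486 on the replicate 2 arrays. That brightness gap was 3.09 log2 units beyond the median gap of all clones, and 0.319% of clones lay as far from that median. ATP1B1 was at 0.19 ± 0.12 and higher on 6 of 8 arrays, with the parental channel at background. ATP1B2, the adhesion molecule of glia, was at -0.37 ± 0.23 (adjusted p = 0.351), with 0.62, 0.26, -0.59 and 0.16 on the replicate 1 arrays, -0.67, -1.01, -0.33 and -1.41 on the replicate 2 arrays, and both channels at background.

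Taken one derivative at a time, 0 of 28 clones passed in any of the 4, against backgrounds of 0.516% in CPR20, 0.607% in CPR40, 0.629% in CPR55 and 1.43% in CPR70 over all tested clones. At an unadjusted p under 0.05 there were 2, 1, 4 and 1 members in CPR20, CPR40, CPR55 and CPR70, while 9.72%, 12.1%, 11.2% and 14.2% of all tested clones were in that range. The 4 members in CPR55 thus lay near the background and the counts in the others below it. In CPR55 they were the ATP2A2 brighter clone (1.08, adjusted p = 0.114), ATP6N1A (0.83, adjusted p = 0.185), ATP6F (0.65, adjusted p = 0.249) and ATP2B4 (0.62, adjusted p = 0.287), all in limma. In CPR70 it was ATP2B1 (0.97, adjusted p = 0.185, limma). In CPR55 23 of 28 members had a mean above 0, in CPR20 13, in CPR40 16 and in CPR70 12, while the shares of all tested clones were 50.1% in CPR55, 49.6% in CPR20, 48.4% in CPR40 and 49.0% in CPR70.

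No difference between the derivatives passed the test. Any difference among the 4 was called for 0 members and for 0 of 13186 clones (1 member and 329 clones at an unadjusted p under 0.05, limma), and CPR70 minus CPR20 for 0 of each (0 members and 260 clones unadjusted), so percent called was 0 in both. The median spread between the highest and lowest derivative was 0.46 for the members and 0.50 for all tested clones. For the V0 clone ATP6F, CPR20 was at 0.15, CPR40 at 0.44, CPR55 at 0.65 and CPR70 at 0.40, and ATP6N1A had 0.22, 0.44, 0.83 and 0.33. Both had their lowest mean in CPR20 and their highest in CPR55. For ATP6N1A the parental channel was at background on both CPR55 arrays. With that channel set to its background level, its CPR55 estimate was 1.43-fold, a value that carries no sampling error. Its CPR40 estimate was 1.36-fold, and it passed in neither derivative (adjusted p = 0.185 in CPR55 and 0.454 in CPR40, limma).

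Other genes of these pathways were read from lists in the mean of the derivatives, against the same 11% background. FXYD1, a small regulator of the sodium pump, was at -0.49 ± 0.15 (adjusted p = 0.0757, limma) and did not pass. Of 15 calcium store and entry genes 1 rose and 1 fell, the inositol trisphosphate receptor ITPR3 (0.80, parental channel at background) and the chaperone CANX (-0.72). For ITPR3 the derivative channel was above background on 3 arrays. With its parental channel set to the background level the ratio no longer exceeded 1. CALR, the main calcium buffer of the store, was at 0.54 ± 0.27 and CALU, another calcium-binding protein of the secretory pathway, at -0.32, and neither passed.

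Of 7 genes of vacuolar pump assembly and regulation 0 were called (limma). At an unadjusted p under 0.05 there were 2 of the 7, near the share of all tested clones (3485 of 13186). WDR7, a partner of the pump, was at 0.31 ± 0.13 (adjusted p = 0.163), and TCIRG1, another form of subunit a, at 0.24 ± 0.15 (adjusted p = 0.361). Of 42 lysosomal genes 4 rose, 3 fell and 35 did not pass. The sulfatase ARSA (0.71), the membrane protein LAMP1 (0.56, parental channel at background), the glucosidase GAA (0.49) and CTSA (0.47) rose. For LAMP1 the derivative channel was above background on 1 array. With its parental channel set to the background level the ratio no longer exceeded 1. The acid lipase LIPA (-1.38), LAMTOR3 (-0.56) and PPT1 (-0.39) fell. The median of that list was 0.14. Of 13 other P-type ATPases 2 rose and 0 fell, the flippases ATP11B (3.41) and ATP9A (0.82). For ATP9A the parental channel was at background on all 8 arrays. With that channel set to its background level the estimate was 1.03-fold, a value that carries no sampling error.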

How the data were processed

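The deposited table gives, per the file headers, a Cy5 and a Cy3 intensity, a calibrated ratio and a spot area for each of 15360 spots per array. Which software made them is not given in the sources used here, and there is no background column. The calibrated ratio of the authors was red over green times 1 constant per array (0.553 to 1.65). The authors' value table holds log2 of that ratio for 14182 spots, with array medians from -0.50 to 0.41. The deposited spot area was 0 for spots not found. The table also holds 8 value columns that match no sample, and these were not used.

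The 933 control spots (233 empty, 700 without clone data) were left out, spots with area 0 were set to missing, an offset of 50 was added, and log2 ratios were loess normalised within arrays and averaged per clone. The fit used limma 3.58.1 in R 4.3.3 with 1 coefficient per derivative, 4 residual and 3.92 prior degrees of freedom, and adjustment over 13186 clones. Parental RNA is the other channel of every array, so the parental line's own spread is left out, and a dye effect on a clone cannot be told apart from a difference. Where a channel was at background on every array, no fold is given unless its lower bound exceeded 1. That bound sets the channel to its background level and carries no sampling error. The precision is limited by the number of arrays. Replicate numbers gave deviations that correlated at 0.26 to 0.37 between derivatives, with nothing in the labels saying that a number marks a shared batch.

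Values on every array are given for members called in any comparison, for the largest mean of each pump type and for other clones of those genes. Further members given in that detail (ATP2A3, ATP2B4, ATP6A1, ATP6E, ATP6D) and the comparison of replicate sets were chosen after values were seen. Of each list of other genes up to 4 with the smallest p are named, and also LAMTOR3, PPT1 and CTSA, chosen after their values were seen. The members and the lists of other genes were chosen with earlier results of these data known. Alternatives were the offset, median centring, scaling and Aquantile between arrays, the authors' ratio, filters on dim or incomplete clones, averaging clones of a gene, the replicate number as a term, each replicate set alone, and leaving out each array. Single values of 3 members and of some list genes are not reported here, and all of them stayed in the fits and counts.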

Additional observations from a re-analysis of the deposited data

Results flagged for a closer look

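The brighter clone of ATP6C differed between the replicate 2 and the replicate 1 arrays by 1.64 on the log2 scale (adjusted p = 0.0499, limma), with a mean of -1.26 on the 4 replicate 1 arrays and 0.38 on the 4 replicate 2 arrays. This is a difference between arrays of the same derivatives, and its cause was not tested.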

How the results depend on the processing

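Of the 4 members called in the mean of the derivatives, 4 were called with no offset (9.61% of all clones called) or with scaling between arrays (11.2%). Aquantile between arrays leaves the log2 ratios unchanged, so its identical result (4 members, 11% of clones) was fixed in advance and tests nothing. There were 3 with an offset of 200 (10.7% of members against 12.4% of clones), with dim clones left out (17.6% against 31.1%), with clones that had 8 values (11.5% against 15.1%) and with clones averaged per gene (11.5% against 11.6%). Under median centring 0 members and 725 clones of the whole array were called, in the authors' calibrated ratios 0 and 286, on the replicate 1 arrays alone 2 members (the ATP6C brighter clone and ATP2B1; 7.41%) and 1152 clones (9.47%), and on the replicate 2 arrays alone 2 members (ATP1B2 at -0.86 and ATP6A1 at 0.57) and 2257 clones (19.7%), against 1444 clones as reported. Leaving out 1 array gave 0 to 3 members and 764 to 1209 clones; the lowest count of members, 0, came without CPR20 replicate 1, CPR20 replicate 2 or CPR70 replicate 2. The ATP2A2 brighter clone lost its call in 3 of 8 such fits (0.51 to 0.65) and ATP2B1 in 5 of 7 (0.56 to 0.77), while ATP6F ranged from 0.38 to 0.44 and ATP6N1A from 0.38 to 0.53. In single derivatives 1 member was called in CPR55 with dim clones left out (ATP2A2 brighter clone, adjusted p = 0.0437, limma) and 1 in CPR70 without CPR70 replicate 1 (ATP2A3, which then rested on 1 array). With the replicate number as a block 5 members and 2549 clones were called, the added member being the ATP6C brighter clone at -0.44, and no other member's call changed. That fit takes the difference between the replicate sets out of the error.

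Means that changed sign, among the 25 members reported singly, were all of members that did not pass. An offset of 200 gave ATP6J -0.0020. Median centring gave ATP2B4 -0.14, ATP6S1 -0.060, ATP2C1 -0.034, ATP6E 0.12 and the ATP6C dimmer clone 0.016. The authors' ratios gave ATP2B4 -0.12, ATP6S1 -0.14, ATP2C1 -0.0059, the ATP2A2 dimmer clone -0.092 and ATP6E 0.060. The replicate 1 arrays alone gave ATP1B2 0.11, ATP6A1 -0.40, ATP6J -0.20, ATP2A3 0.15, ATP2C1 -0.030 and ATP2A1 0.036. The replicate 2 arrays alone gave the ATP6C brighter clone 0.38, ATP6D -0.051, ATP6S1 -0.11 and ATP6E 0.32. Leaving out 1 array moved ATP1B3 between -0.037 and 0.15, ATP6A1 between -0.058 and 0.23, ATP6J between -0.062 and 0.10, ATP2A3 between -0.69 and 0.18, ATP2C1 between -0.10 and 0.23, the ATP2A2 dimmer clone between -0.039 and 0.13, ATP6E between -0.20 and 0.058 and the ATP6C dimmer clone between -0.17 and 0.038. The cause was not tested. Signal over background limits the calcium and sodium pumps most, with both channels above it on 4 or more arrays for 3 of their 14 clones.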
